A study of Mus musculus with 2 samples.

Results

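The 33 genes described here encode the enzymes of glycolysis, the carriers that move glucose and lactate across the cell membrane, and members of the transcriptional response to low oxygen. They were chosen by gene symbol from the 27998 genes of the count files, and all 33 were found. By role they fall into 13 glycolytic enzymes (Hk1, Hk2, Gpi1, Pfkl, Pfkp, Aldoa, Tpi1, Gapdh, Pgk1, Pgam1, Eno1, Pkm and Ldha), 3 regulators of glycolytic flux (Pfkfb3, Pfkfb4 and Pdk1) and 4 transporters (Slc2a1, Slc2a3, Slc16a1 and Slc16a3). The others are the hypoxia-inducible factor subunit Hif1a with 2 prolyl hydroxylases that sense oxygen (Egln1 and Egln3), and 10 target genes of hypoxia-inducible factors, HIF (Bnip3, Bnip3l, Ero1l, P4ha1, P4ha2, Ndrg1, Adm, Ddit4, Ankrd37 and Ndufa4l2).

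Single cells of mouse skin were profiled by droplet-based 3′ RNA sequencing in 2 libraries, IMQ-D5 and Ctrl. The IMQ-D5 library came from wild-type C57BL/6 mice aged 2 months whose skin had received imiquimod, an agonist of Toll-like receptor 7 that induces a psoriasis-like dermatitis, once a day for 5 days. The Ctrl library came from control mice of the same genotype, strain and age, and dorsal skin of females was taken in both groups, per the series' design text. Cells were freed with collagenase D and DNase and dead cells were removed. The number of animals behind each library is not stated in the labels.

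Glycolysis splits glucose into pyruvate in the cytosol, and lactate dehydrogenase turns pyruvate into lactate, which regenerates the cofactor the pathway needs and leaves the cell through monocarboxylate transporters. In the presence of oxygen the prolyl hydroxylases mark HIF-1α for destruction. When oxygen is scarce, or when inflammatory and growth signals raise HIF-1α, the factor binds short ACGTG or GCGTG cores near genes of glycolysis, glucose uptake, mitochondrial turnover and vessel growth. Epidermis has no vessels of its own and is known to rely on glycolysis, as do neutrophils and activated macrophages.

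Promoters are shown first, because these cores are the feature through which HIF is known to act on the genes described below. In RefSeq (build GRCm38.p6), 28 of the 33 genes had a promoter window, of which the 250 bases before the transcription start were searched on both strands for ACGTG and GCGTG. A core was present in 26 of the 28 genes (92.9%), against 41.5% of 27025 genes with a window and 60.5% of the 10417 such genes measured in keratinocytes. Gpi1 and Tpi1 had none, and Slc2a3, Bnip3l, Ero1l, Ndrg1 and Ndufa4l2 had no window. Over single windows the share was 38.6%, with ACGTG in 16.6% and GCGTG in 28.2%. Because the members were picked as known HIF-linked genes, this share describes the list, and a core is a match of letters, not a measured binding site. The 5 windows below belong to genes on which the results turn: the glucose carrier Slc2a1, the lactate exporter Slc16a3, lactate dehydrogenase A (Ldha) and the HIF targets Bnip3 and Adm. Each is printed 5′ to 3′ on the gene's own strand and ends at the base before the transcription start, with the cores in capitals; the palindrome CACGTG holds a core on each strand, so Ldha and Bnip3 each count 5 matches and the other 3 genes count 2.
Slc2a1, chr4:119108495-119108744, plus strand: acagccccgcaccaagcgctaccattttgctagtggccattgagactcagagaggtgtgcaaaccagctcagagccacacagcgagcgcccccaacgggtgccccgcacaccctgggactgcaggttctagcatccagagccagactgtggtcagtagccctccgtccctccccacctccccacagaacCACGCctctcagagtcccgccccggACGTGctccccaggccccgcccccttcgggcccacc
Slc16a3, chr11:120948817-120949066, plus strand: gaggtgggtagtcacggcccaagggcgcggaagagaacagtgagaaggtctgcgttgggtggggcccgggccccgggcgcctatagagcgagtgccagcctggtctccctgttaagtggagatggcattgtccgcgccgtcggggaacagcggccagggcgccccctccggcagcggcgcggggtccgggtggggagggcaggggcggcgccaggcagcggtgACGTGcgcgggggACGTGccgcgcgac
Ldha, chr7:46845554-46845803, plus strand: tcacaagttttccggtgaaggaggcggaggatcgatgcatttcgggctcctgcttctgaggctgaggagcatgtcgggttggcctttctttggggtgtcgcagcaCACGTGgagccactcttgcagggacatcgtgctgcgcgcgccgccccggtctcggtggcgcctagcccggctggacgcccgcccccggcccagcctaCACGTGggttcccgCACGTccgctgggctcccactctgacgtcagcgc
Bnip3, chr7:138909507-138909756, minus strand: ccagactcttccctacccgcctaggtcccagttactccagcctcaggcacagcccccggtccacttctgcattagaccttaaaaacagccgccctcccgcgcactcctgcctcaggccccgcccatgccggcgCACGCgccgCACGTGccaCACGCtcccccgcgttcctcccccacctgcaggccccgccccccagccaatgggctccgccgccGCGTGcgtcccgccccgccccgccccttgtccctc
Adm, chr7:110627407-110627656, plus strand: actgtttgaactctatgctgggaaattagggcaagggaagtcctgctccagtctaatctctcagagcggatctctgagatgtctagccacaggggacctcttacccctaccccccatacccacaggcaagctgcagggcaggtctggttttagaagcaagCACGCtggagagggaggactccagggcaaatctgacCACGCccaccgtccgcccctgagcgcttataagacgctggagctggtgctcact
Counted from the start, the nearest core begins at -14 in Slc16a3, -34 in Ldha, -35 in Bnip3, -36 in Slc2a1 and -54 in Adm. The cores in the Adm window are of the GCGTG type, read here on the opposite strand as CACGC.

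The IMQ-D5 library held 144054978 unique molecular identifiers (UMIs, each standing for 1 captured transcript) over 9414 barcodes, and the Ctrl library held 123088680 over 10857 barcodes. With at least 200 genes and at most 10% mitochondrial UMIs, 8499 IMQ-D5 cells and 10297 Ctrl cells were kept, with medians of 12650 and 9596 UMIs; 23 barcode sequences occurred in both libraries. Cells were placed in lineages by panels of marker genes, and the names below stand for cells that resemble that lineage by its markers. Keratinocytes numbered 2103 in IMQ-D5 and 1544 in Ctrl, and fibroblasts 3775 and 7095. Cells carrying markers of 2 lineages (351 in IMQ-D5 and 336 in Ctrl) or too few markers (241 and 259) were left out. RNA from other cells was estimated at 0.775% to 1.88% of UMIs in the 10 IMQ-D5 lineages compared below and at 1.47% to 3.46% in those of Ctrl, and subtracting it changed none of the 59 calls on single members. Pseudogenes named after Aldoa, Gapdh, Pgk1, Pgam1, Ldha and Bnip3l (the symbol followed by -ps) are annotated but absent from the files. Reads of such copies could have been counted for these genes or lost. Copies under other names were not searched for and sequences were not compared, so other members may have copies too.

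Levels are given as counts per 1e6 UMIs of a lineage in 1 library (CPM), and a ratio is IMQ-D5 over Ctrl. Values in parentheses after a ratio are exact 95% intervals. With 1 library a group no test between conditions is possible: the intervals cover counting error only, and each difference is one between these 2 libraries. A gene was called higher or lower when it had at least 20 UMIs over both libraries, differed at least 2-fold and had an interval that excluded equality. The comparison covers the 10 lineages that had 30 or more cells on both sides.

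The genes were called most often in keratinocytes, macrophages and dendritic cells, where glycolytic enzymes and the carriers Slc2a1 or Slc16a3 were higher in IMQ-D5. In pericytes and smooth muscle cells more members were called lower than higher. The HIF target Ndufa4l2 was lower in keratinocytes and fibroblasts and higher in pericytes and smooth muscle cells. Adm was higher in fibroblasts and lymphatic endothelium and lower in pericytes and smooth muscle cells. Within that mural lineage, both genes were under 2-fold in the cells with more of the pericyte gene Rgs5 than of Myh11. In Schwann cells no member passed the call, where few of all genes did (2.82% higher and 2.42% lower).

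**Figure D1:**
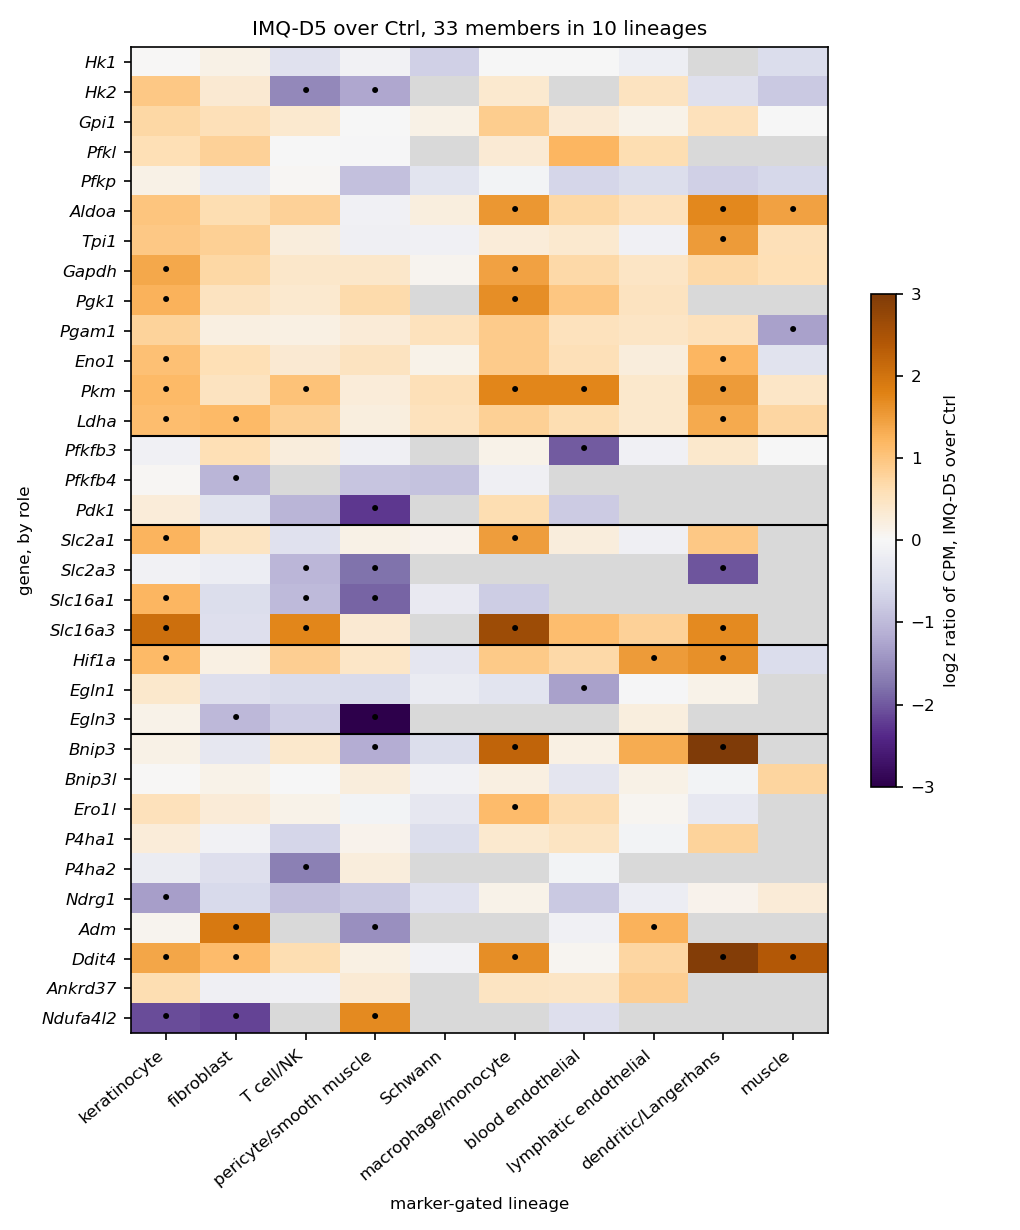
Log2 ratio of CPM, IMQ-D5 over Ctrl, for the 33 genes (rows, grouped by role with lines between enzymes, regulators, transporters, HIF factor and sensors, and HIF targets) in 10 lineages (columns). Brown is higher in IMQ-D5, purple higher in Ctrl, grey marks genes with under 20 UMIs over both libraries, and dots mark calls; the brown block of enzymes in keratinocytes, macrophages and dendritic cells faces a mostly pale Schwann column.

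In keratinocytes, the cells of the epidermis and hair follicles, 10 of 33 members were higher and 2 lower in IMQ-D5. By the same rule 11.9% of the 14082 genes measured there were higher and 10.8% lower. The members' median log2 ratio was 0.60, and that of all genes 0.03. Of the 13 glycolytic enzymes 5 were higher and none lower, and all 13 ratios were above 1 (median log2 0.96). Glyceraldehyde-3-phosphate dehydrogenase (Gapdh), which yields the first reducing equivalents of the pathway, had 1888 CPM in IMQ-D5 and 728 CPM in Ctrl, a ratio of 2.59 (2.56 to 2.63). Phosphoglycerate kinase 1 (Pgk1), the first ATP-producing step, had 34.9 CPM in IMQ-D5 and 14.6 CPM in Ctrl, a ratio of 2.39 (2.17 to 2.64). Enolase 1 (Eno1) had 327 CPM in IMQ-D5 and 157 CPM in Ctrl (ratio 2.08, 2.02 to 2.14). These 3 act one after another or nearly so in the later steps of the pathway, and for none did the intervals of the libraries overlap. Pyruvate kinase (Pkm), which makes pyruvate, had 667 CPM in IMQ-D5 and 298 CPM in Ctrl (2.24, 2.19 to 2.29). Ldha had 642 CPM in IMQ-D5 and 297 CPM in Ctrl (2.16, 2.12 to 2.21).

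The other 8 enzymes stayed under the 2-fold limit. Aldolase A (Aldoa), which splits fructose-1,6-bisphosphate, lay just below it at 642 CPM in IMQ-D5 and 321 CPM in Ctrl (interval of the ratio 1.96 to 2.04). Triosephosphate isomerase (Tpi1) had a ratio of 1.94, and hexokinase 2 (Hk2), the inducible enzyme that traps glucose in the cell, had 99.4 CPM in IMQ-D5 and 51.4 CPM in Ctrl, a ratio of 1.93. Ratios were 1.73 for phosphoglycerate mutase 1 (Pgam1), 1.64 for glucose-6-phosphate isomerase (Gpi1) and 1.52 for the phosphofructokinase Pfkl. The platelet-type phosphofructokinase (Pfkp) had a ratio of 1.12. The constitutive hexokinase Hk1 had 45.5 CPM in IMQ-D5 and 45.3 CPM in Ctrl, and its intervals overlapped. The 3 regulators did not pass the call either. Ratios were 0.914 for Pfkfb3 and 1.03 for Pfkfb4, the bifunctional enzymes that set fructose-2,6-bisphosphate, and 1.21 for Pdk1, a kinase that switches off pyruvate dehydrogenase.

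Of the 4 transporters, 3 were higher in IMQ-D5 keratinocytes. The glucose carrier GLUT1 (Slc2a1) had 120 CPM in IMQ-D5 and 51.5 CPM in Ctrl, a ratio of 2.33 (2.21 to 2.45). The monocarboxylate carrier MCT1 (Slc16a1) had 59.4 CPM in IMQ-D5 and 25.6 CPM in Ctrl, a ratio of 2.32 (2.16 to 2.50). MCT4 (Slc16a3), the exporter typical of glycolytic cells, had 22.2 CPM in IMQ-D5 and 5.32 CPM in Ctrl, a ratio of 4.17 (3.57 to 4.89), the highest among the members in these cells. The neuronal and leukocyte glucose carrier GLUT3 (Slc2a3) was scarce, at 1.21 CPM in IMQ-D5 and 1.31 CPM in Ctrl. Cells were thinned to 2000 UMIs and shallower ones left out, 41 of the IMQ-D5 and 19 of the Ctrl keratinocytes. After thinning, Slc2a1 was detected in 17.6% of IMQ-D5 keratinocytes (16.0 to 19.3) and in 9.57% of those of Ctrl (8.14 to 11.2). Without thinning these shares were 73.9% in IMQ-D5 and 55.5% in Ctrl, at medians of 25836 and 16706 UMIs, and in fibroblasts, which had 12.0 and 8.57 CPM, the thinned shares were 2.53% and 1.89%.

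Hif1a itself was higher in IMQ-D5 keratinocytes, at 262 CPM against 117 CPM in Ctrl (ratio 2.24, 2.17 to 2.32). The oxygen sensors Egln1 and Egln3 had ratios of 1.30 and 1.09. Among the 10 HIF targets, 1 was higher and 2 were lower (median log2 0.12). Ddit4, an inhibitor of the growth kinase complex mTORC1, had 105 CPM in IMQ-D5 and 39.98 CPM in Ctrl (2.61, 2.47 to 2.77). Ndrg1, a stress-responsive gene also linked to differentiation, had 69.0 CPM in IMQ-D5 and 172 CPM in Ctrl (0.400, 0.385 to 0.416). Ndufa4l2, a mitochondrial protein that lowers complex I activity in hypoxia, had 53.8 CPM in IMQ-D5 and 232 CPM in Ctrl (0.232, 0.223 to 0.241). Both were below their Ctrl level with intervals far apart. The other 7 targets lay between ratios of 0.856 (P4ha2, a collagen prolyl hydroxylase) and 1.53 (Ankrd37). Among them the mitophagy receptors Bnip3 and Bnip3l had ratios of 1.11 and 1.01, the oxidase Ero1l, which forms disulphide bonds in the endoplasmic reticulum, 1.47, the collagen hydroxylase P4ha1 1.21 and the vasodilator peptide gene Adm 1.06.

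**Figure D2:**
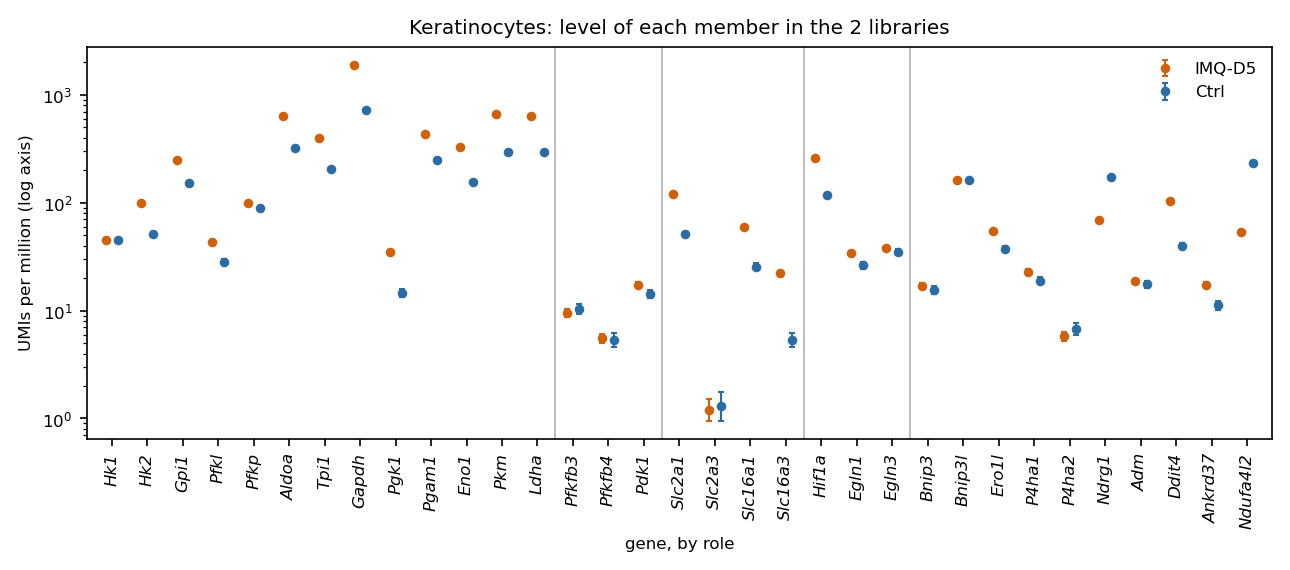
CPM (log axis) of the 33 genes in keratinocytes of IMQ-D5 (orange) and Ctrl (blue); points are the summed level of 1 library, bars are exact 95% counting intervals and lines separate the roles. The IMQ-D5 points lie above the Ctrl points for most enzymes and 3 transporters, whereas Ndrg1 and Ndufa4l2 lie below.

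Summed over the 13 enzymes, keratinocytes had 5570 CPM in IMQ-D5 and 2639 CPM in Ctrl, a ratio of 2.11 (2.10 to 2.13). The 4 transporters summed to 203 CPM in IMQ-D5 and 83.7 CPM in Ctrl, and the 10 HIF targets to 528 CPM in IMQ-D5 and 713 CPM in Ctrl. The makeup of the keratinocytes differed as well: basal cells were 48.4% of IMQ-D5 and 40.3% of Ctrl keratinocytes, and suprabasal cells 21.5% and 42.2%. The differentiation keratin Krt10 had 3024 CPM in IMQ-D5 and 12315 CPM in Ctrl, and the wound keratin Krt6a had 1582 CPM in IMQ-D5 and 30.2 CPM in Ctrl. Markers of neutrophils summed to 5602 CPM in IMQ-D5 keratinocytes and 41.0 CPM in Ctrl, with 11 of 12 and 9 of 12 detected; this panel holds S100a8 and S100a9, which inflamed keratinocytes also make. Slc2a3, at 457 CPM in neutrophils, was at 1.21 CPM in the IMQ-D5 keratinocytes. The part of neutrophil RNA in the keratinocyte values was not tested. Markers of fibroblasts summed to 265 CPM in IMQ-D5 keratinocytes and 669 CPM in Ctrl.

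The enzymes had median ratios above 1 in both main layers of the epidermis. In basal cells (1018 in IMQ-D5 and 623 in Ctrl) the median log2 ratio of the enzymes was 0.86 beside -0.04 over all genes. In suprabasal cells (453 in IMQ-D5 and 652 in Ctrl) it was 1.01 beside -0.20. MCT4 was mainly a basal transcript, with 35.4 CPM in IMQ-D5 basal cells and 12.7 CPM in those of Ctrl, and 6.64 CPM and 0.349 CPM in suprabasal cells. GLUT1 had 163 CPM in IMQ-D5 and 81.1 CPM in Ctrl in basal cells, and 55.9 CPM and 28.8 CPM in suprabasal cells, so that it was lower in suprabasal than in basal cells in both libraries. MCT1 passed the call in basal cells (81.6 CPM in IMQ-D5 and 32.9 CPM in Ctrl) and not in suprabasal cells (22.0 CPM and 18.2 CPM).

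Bnip3, Egln3 and Adm passed the call in suprabasal cells and had ratios below 1, under 2-fold, in basal cells; the difference between layers was not tested. Bnip3 had 27.2 CPM in IMQ-D5 and 11.8 CPM in Ctrl in suprabasal cells, a ratio of 2.30 (1.94 to 2.74), and 15.1 CPM and 22.3 CPM in basal cells, a ratio of 0.676 (0.586 to 0.781). Egln3 had 80.7 CPM in IMQ-D5 and 32.1 CPM in Ctrl in suprabasal cells (2.51, 2.27 to 2.79), and 27.1 CPM and 36.5 CPM in basal cells (0.743, 0.666 to 0.829). Adm had 41.9 CPM in IMQ-D5 and 16.7 CPM in Ctrl in suprabasal cells (2.51, 2.17 to 2.89), and 10.6 CPM and 20.8 CPM in basal cells (0.512, 0.438 to 0.599). For all 3 the suprabasal intervals lie above equality and the basal intervals below it, which the sum over the lineage hides. Ndufa4l2 had 29.5 CPM in IMQ-D5 and 264 CPM in Ctrl in basal cells (0.112, 0.104 to 0.120), and 149 CPM and 241 CPM in suprabasal cells (0.618), where it did not pass the call.

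Cell cycle genes summed to 1078 CPM in IMQ-D5 keratinocytes and 596 CPM in Ctrl, a ratio of 1.81. Within basal cells the sums were 1444 CPM in IMQ-D5 and 1299 CPM in Ctrl (1.11, against 1.98 for the summed enzymes), and within suprabasal cells 183 CPM and 107 CPM (1.72, against 2.22). In other lineages the cell cycle ratio was 5.38 in blood endothelium, 4.05 in pericytes and smooth muscle cells and 3.35 in fibroblasts. Among keratinocytes without a single UMI of 20 cell cycle genes (195 in IMQ-D5 and 228 in Ctrl), 6 members were higher and none lower. Of the 12 calls over all keratinocytes, 3 (Gapdh, Eno1 and Ddit4) were kept there, and the other 3 genes called were Pfkfb3, Pfkfb4 and Bnip3. The 9 lost calls were those of Pgk1 (log2 ratio 0.48), Pkm (0.84), Ldha (0.92), Slc2a1 (0.19), Slc16a1 (-0.076), Slc16a3 (1.21, on 17 and 8 UMIs), Hif1a (0.86), Ndrg1 (-0.41) and Ndufa4l2 (-0.86). With each cell given equal weight, Slc2a1 (0.89) and Slc16a1 (0.86) were also under 2-fold. For the cells without cell cycle UMIs no share over all genes was computed, and their depth was not matched to that of all keratinocytes. The part of cell division in these ratios was not tested.

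In fibroblasts, which make the dermal matrix, 3 of 33 members were higher and 3 lower, against 11.2% and 4.36% of the 14849 genes measured. The median log2 ratio was 0.18 for the members and 0.26 for all genes. Summed collagen and other fibroblast markers were 64830 CPM in IMQ-D5 and 145014 CPM in Ctrl. Of these markers, Col1a1 (0.259), Col1a2 (0.269), Col3a1 (0.615), Clec3b (0.824) and Mmp2 (0.840) had ratios below 1. The other markers of the panel had ratios above 1, from 1.02 (Dpt) to 2.20 (Fbln1). Ldha was the only enzyme called, at 260 CPM in IMQ-D5 and 117 CPM in Ctrl (2.22, 2.16 to 2.28). Adm, which encodes adrenomedullin, a peptide that widens vessels, had 283 CPM in IMQ-D5 and 75.3 CPM in Ctrl (3.75, 3.64 to 3.87). Ddit4 had 44.2 CPM in IMQ-D5 and 20.03 CPM in Ctrl (2.21, 2.07 to 2.36). With size factors that centre all genes, Adm kept its call at a log2 ratio of 1.65, while Ldha (0.89) and Ddit4 (0.88) fell under 2-fold.

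Lower in IMQ-D5 fibroblasts were Ndufa4l2, Pfkfb4 and Egln3. Ndufa4l2 had 94.1 CPM in IMQ-D5 and 420 CPM in Ctrl (0.224, 0.218 to 0.231). Pfkfb4 had 13.2 CPM in IMQ-D5 and 27.7 CPM in Ctrl (0.478, 0.438 to 0.520). Egln3 was scarce, with 55 UMIs in IMQ-D5 and 152 in Ctrl, or 1.01 CPM and 2.04 CPM. After thinning, 14.7% of IMQ-D5 fibroblasts (13.6 to 15.9) and 35.9% of Ctrl fibroblasts (34.7 to 37.0) held a UMI of Ndufa4l2; the unthinned shares were 37.8% and 52.6%, at medians of 13391 and 9506 UMIs. Too shallow were 132 IMQ-D5 and 330 Ctrl fibroblasts. For Adm the thinned shares were 27.9% in IMQ-D5 (26.4 to 29.3) and 11.4% in Ctrl (10.7 to 12.2), and the unthinned shares 52.3% and 27.3%. In T and NK cells, which are not known to express Ndufa4l2, its thinned share was 0.267% in IMQ-D5 and 0.410% in Ctrl, each of them 1 cell, and Adm was likewise found in 1 cell of each library (59 of the IMQ-D5 and 28 of the Ctrl T and NK cells were too shallow).

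The other fibroblast members stayed under 2-fold. The 12 remaining enzymes had ratios from 0.845 (Pfkp) to 1.77 (Tpi1), with Gapdh at 727 CPM in IMQ-D5 and 444 CPM in Ctrl. Of the carriers, Slc2a1 had a ratio of 1.40, Slc2a3 0.876, Slc16a1 0.709 and Slc16a3 0.715. Hif1a was at 120 CPM in IMQ-D5 and 106 CPM in Ctrl. The collagen hydroxylases P4ha1 and P4ha2, which need oxygen to mature collagen, had ratios of 0.929 and 0.713. P4ha2 was a fibroblast transcript in both libraries, with 121 CPM in IMQ-D5 and 170 CPM in Ctrl and no other lineage above 50 CPM.

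The fibroblast subtypes differed from one another. Adm was concentrated in interstitial progenitors, with 344 CPM in IMQ-D5 and 148 CPM in Ctrl (2.32, 2.22 to 2.43), and in perivascular fibroblasts, with 350 CPM and 209 CPM (1.67, 1.55 to 1.80). Coch fibroblasts had 10.1 CPM in IMQ-D5 and 18.5 CPM in Ctrl, and dermal sheath cells 10.7 CPM and 24.2 CPM. Perivascular fibroblasts were 38.3% of IMQ-D5 and 7.79% of Ctrl fibroblasts, and the part of this shift in the level over all fibroblasts was not tested. Markers of that panel themselves differed over all fibroblasts. Cxcl12 was at 1636 CPM in IMQ-D5 and 107 CPM in Ctrl, and Apod at 2463 CPM and 320 CPM. The other markers of the panel also had ratios above 1, from 1.12 (Spry1) to 4.24 (F3). With a panel that leaves out Cxcl12 and Apod alone, Adm was at 264 CPM in IMQ-D5 and 174 CPM in Ctrl perivascular cells. That panel thus still holds genes with ratios above 1.

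Ndufa4l2 was highest in Coch and papillary fibroblasts. In Coch fibroblasts it had 407 CPM in IMQ-D5 and 863 CPM in Ctrl (0.471, 0.425 to 0.522), and in papillary fibroblasts 230 CPM and 622 CPM (0.370, 0.280 to 0.479). In interstitial progenitors it had 23.2 CPM in IMQ-D5 and 101 CPM in Ctrl (0.229, 0.201 to 0.260). Perivascular fibroblasts had 93.5 CPM in IMQ-D5 and 93.0 CPM in Ctrl, and 80.7 CPM and 116 CPM by the panel without Cxcl12 and Apod. Papillary fibroblasts numbered 31 in IMQ-D5 and 275 in Ctrl. Ddit4 was widest apart in interstitial progenitors, with 71.9 CPM in IMQ-D5 and 8.56 CPM in Ctrl (8.40, 7.17 to 9.88), while papillary fibroblasts had 19.5 CPM and 52.7 CPM (0.370, 0.118 to 0.882). Genes induced by tissue dissociation summed to 41632 CPM in IMQ-D5 and 24260 CPM in Ctrl progenitors (1.72). Of these, 6 of 18 were called higher, and no share over all genes was computed for progenitors. The summed ratios were 1.48 in dermal papilla cells and 0.663 in papillary fibroblasts. The part of the dissociation genes in the values of Ddit4 and Adm was not tested.

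**Figure D3:**
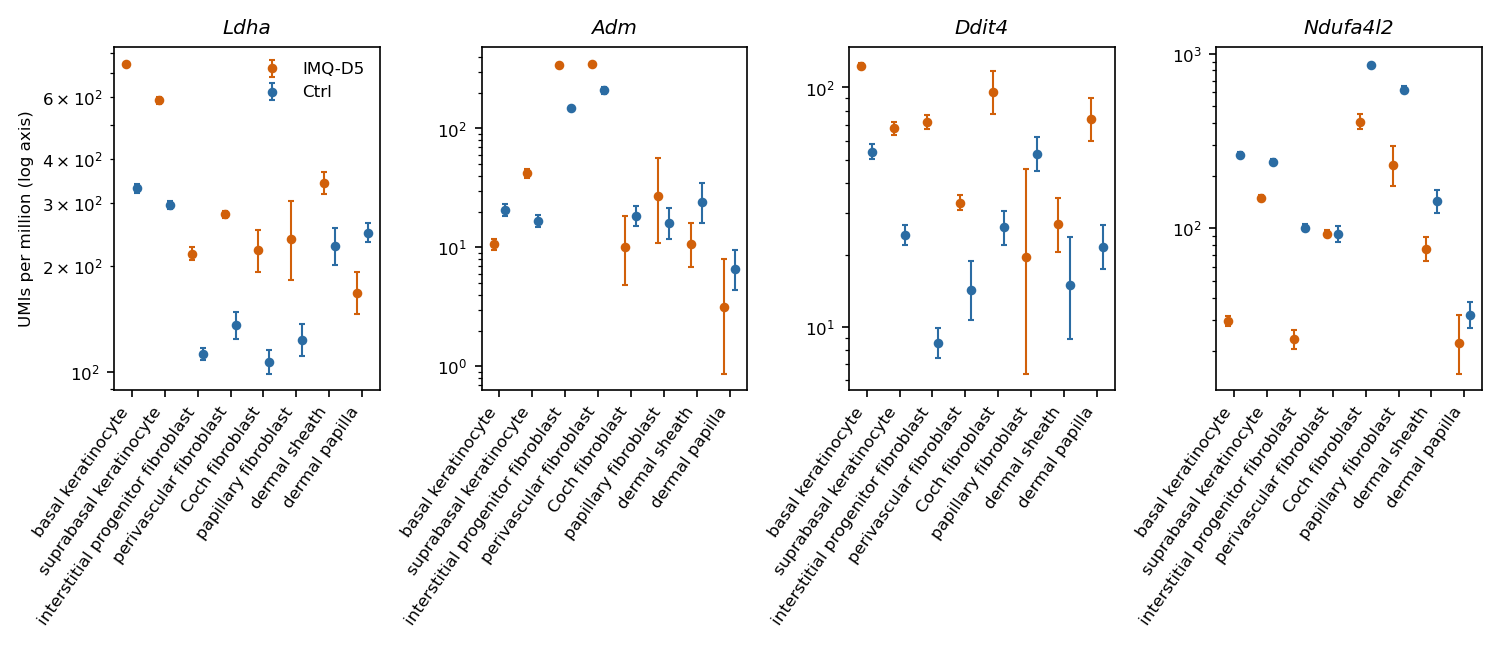
CPM (log axis, a scale of its own per panel) of Ldha, Adm, Ddit4 and Ndufa4l2 in 2 keratinocyte and 6 fibroblast subtypes of IMQ-D5 (orange) and Ctrl (blue), with exact 95% counting intervals. Adm is above 100 CPM only in interstitial progenitors and perivascular fibroblasts, and Ndufa4l2 shows its widest gap in basal keratinocytes.

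In macrophages and monocytes (377 cells in IMQ-D5 and 90 in Ctrl) 9 of 28 measured members were higher and none lower, against 5.87% and 8.36% of 7944 genes. The median log2 ratio was 0.73 for the members and -0.03 for all genes. Pkm had 785 CPM in IMQ-D5 and 235 CPM in Ctrl (3.34, 2.76 to 4.07). Gapdh had 2417 CPM in IMQ-D5 and 893 CPM in Ctrl (2.71, 2.45 to 2.99). Aldoa had 581 CPM in IMQ-D5 and 198 CPM in Ctrl (2.94, 2.39 to 3.66). Pgk1 rested on 66 UMIs in IMQ-D5 and 4 in Ctrl, a ratio of 3.17 (1.18 to 12.0). These 4 of 13 enzymes were called, and Ldha, at 349 CPM in IMQ-D5 and 195 CPM in Ctrl, was not.

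The widest macrophage difference among the members was in MCT4. Slc16a3 had 104 CPM in IMQ-D5 and 16.8 CPM in Ctrl, or 257 and 8 UMIs, a ratio of 6.17 (3.08 to 14.4). Slc2a1 had 52.9 CPM in IMQ-D5 and 18.9 CPM in Ctrl (2.80, 1.43 to 6.25). Of the HIF targets, Bnip3 had 39.1 CPM in IMQ-D5 and 8.41 CPM in Ctrl (4.66, 1.76 to 17.4). Ddit4 had 33.1 CPM in IMQ-D5 and 10.5 CPM in Ctrl, and Ero1l 73.9 CPM and 33.6 CPM. The Ctrl side of Bnip3, Ddit4 and Slc16a3 rests on 4, 5 and 8 UMIs, which the wide intervals show. Pdk1 had 24 UMIs in IMQ-D5 and 0 in Ctrl, a ratio of 1.54 when the 0 is set to a floor of 3 counts. With each cell given equal weight, Ddit4 had a log2 ratio of 0.18 and lost its call. Hif1a was at 145 CPM in IMQ-D5 and 75.7 CPM in Ctrl, under 2-fold.

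Markers of macrophage state differed too. Complement C1qa, a marker of resident macrophages, had 997 CPM in IMQ-D5 and 2467 CPM in Ctrl, and Mrc1 had 349 CPM and 1164 CPM. The monocyte gene Cd14 had 2746 CPM in IMQ-D5 and 885 CPM in Ctrl. Monocyte genes did not all differ this much: Ccr2 (ratio 1.02), Ms4a6c (1.54) and Ly6c2 (1.97) did not pass the call. In cells with C1q (99 in IMQ-D5 and 58 in Ctrl) Gapdh had a ratio of 4.49 (3.75 to 5.42) and Pkm of 4.11 (2.96 to 5.85). In cells with little C1q (278 and 32) the ratios were 1.82 (1.62 to 2.05) and 2.55 (2.01 to 3.27). Slc16a3 had ratios of 5.03 (1.28 to 43.4, with 2 UMIs in Ctrl) and 4.82 (2.18 to 13.3). Both sides of this split had intervals above equality for all 3 genes.

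Dendritic and Langerhans cells (48 in IMQ-D5 and 39 in Ctrl) had 9 of 22 measured members higher and 1 lower, against 9.49% and 5.65% of 4763 genes. The median log2 ratio was 0.74 for the members and 0.11 for all genes. Of 10 measured enzymes, 5 were higher. Aldoa had 776 CPM in IMQ-D5 and 236 CPM in Ctrl (3.29, 2.63 to 4.17), Pkm had 697 CPM and 243 CPM (2.86, 2.29 to 3.62), and Ldha had 438 CPM and 172 CPM (2.55, 1.94 to 3.39). Tpi1 and Eno1 were the other 2. Slc16a3 had 50.03 CPM in IMQ-D5 and 15.4 CPM in Ctrl, and Hif1a 79.4 CPM and 25.6 CPM. Slc2a3 was the member called lower, at 13.8 CPM in IMQ-D5 and 56.3 CPM in Ctrl, or 8 and 22 UMIs. Ddit4 had 34 UMIs in IMQ-D5 and 3 in Ctrl (7.63, 2.40 to 38.9), and Bnip3 26 and 1 (17.5, 2.88 to 718). These rest on few counts, and without the cell richest in Bnip3 its call was lost. Here too the markers differed, though not all one way. The conventional dendritic cell genes Mgl2 and Cd209a had 112 CPM and 72.5 CPM in IMQ-D5 and 914 CPM and 448 CPM in Ctrl. Xcr1 (2 and 21 UMIs), Clec9a (0.719) and Zbtb46 (0.698) also had ratios below 1. The rest of the dendritic panel had ratios above 1, from 1.22 (H2-Oa) to 2.07 (Cacnb3). Macrophage markers summed to 1018 CPM in IMQ-D5 and 3201 CPM in Ctrl.

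Neutrophils, of which IMQ-D5 held 279 and Ctrl 6, could not be compared, and their levels are given for IMQ-D5 alone. Among the 14 IMQ-D5 lineages with at least 30 cells they had the highest level of 10 members. MCT4 stood out at 469 CPM (426 to 515), against 134 CPM in basophils and 104 CPM in macrophages. GLUT3 was at 457 CPM (415 to 503), with basophils at 364 CPM (286 to 455) and overlapping intervals. GLUT1 was at 149 CPM (125 to 176), above keratinocytes at 120 CPM. The flux regulators Pfkfb3, at 166 CPM, and Pfkfb4, at 84.8 CPM, were above every other IMQ-D5 lineage beyond their intervals, as were Pkm at 980 CPM and Bnip3 at 101 CPM. For Ldha (667 CPM, keratinocytes 642 CPM), Gpi1 (424 CPM) and Egln3 (48.3 CPM) the next lineage overlapped. After thinning, 57.6% of neutrophils (50.9 to 64.0) held a UMI of Slc16a3, compared with 2.62% of IMQ-D5 keratinocytes, with 48 neutrophils too shallow; the unthinned shares were 68.8% and 22.3%, at medians of 3127 and 25836 UMIs. MCT1, in contrast, was at 4.29 CPM in neutrophils, and Ndufa4l2 had 0 UMIs, where 3 counts would be 3.22 CPM.

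In T and NK cells (434 in IMQ-D5 and 272 in Ctrl) 2 of 30 measured members were higher and 4 lower, against 7.5% and 6.06% of 8694 genes; Pfkfb4, Adm and Ndufa4l2 had too few UMIs. Pkm had 798 CPM in IMQ-D5 and 389 CPM in Ctrl (2.05, 1.84 to 2.28). Slc16a3 had 21.9 CPM in IMQ-D5 and 6.50 CPM in Ctrl (3.36, 1.53 to 8.76). Lower were Hk2, at 39.3 CPM in IMQ-D5 and 116 CPM in Ctrl (0.338, 0.257 to 0.444), and P4ha2, at 10.9 CPM and 34.4 CPM. Slc2a3 (29.97 CPM and 61.3 CPM) and Slc16a1 (22.7 CPM and 45.5 CPM) lay at the 2-fold limit. Of the 6 calls, Hk2 alone was kept under every other setting tried. With a stricter gate Pkm (log2 ratio 0.51) and Slc16a3 (0.73) lost theirs and Slc2a3 changed direction (0.52), and with equal weight per cell Slc16a1 (-0.67) and P4ha2 (-0.42) lost theirs. Fibroblast markers summed to 207 CPM in IMQ-D5 T and NK cells and 1596 CPM in those of Ctrl. The part of such RNA in the value of P4ha2, which is richest in fibroblasts, was not tested.

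In pericytes and smooth muscle cells, the mural cells of vessels (177 in IMQ-D5 and 314 in Ctrl), 1 of 33 members was higher and 7 were lower, against 7.15% and 7.35% of 9792 genes. Ndufa4l2 had 927 CPM in IMQ-D5 and 285 CPM in Ctrl (3.26, 2.98 to 3.56), the opposite of its direction in keratinocytes and fibroblasts. Its thinned share was 64.2% in IMQ-D5 (56.5 to 71.3) and 41.0% in Ctrl (35.4 to 46.7), with unthinned shares of 74.6% and 59.2% at medians of 11880 and 6223 UMIs and with 4 and 9 cells too shallow. Adm had 17.7 CPM in IMQ-D5 and 49.9 CPM in Ctrl (0.355, 0.237 to 0.518). Slc2a3 had 11.3 CPM in IMQ-D5 and 38.8 CPM in Ctrl, Hk2 10.3 CPM and 24.1 CPM, and Bnip3 10.8 CPM and 24.1 CPM. Slc16a1 (6 and 27 UMIs), Pdk1 (5 and 29 UMIs) and Egln3 (3 and 40 UMIs; ratio 0.0901, 0.0178 to 0.283) were the other 3 called lower. With each cell given equal weight, Adm (log2 ratio -0.15) and Bnip3 (-0.56) lost their calls.

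Markers that separate pericytes from smooth muscle also moved. The pericyte genes Rgs5, Higd1b and Kcnj8 had 2678, 191 and 62.4 CPM in IMQ-D5 and 923, 33.5 and 6.54 CPM in Ctrl. The muscle genes Myh11 and Des had 3849 and 1596 CPM in IMQ-D5 and 5555 and 3223 CPM in Ctrl. Muscle genes did not all move this way: Cnn1 also had a ratio below 1 (0.754), whereas Acta2 (1.31) and Tagln (1.08) had ratios above 1. In cells with more Rgs5 than Myh11 (68 in IMQ-D5 and 64 in Ctrl) Ndufa4l2 had 1353 CPM in IMQ-D5 and 774 CPM in Ctrl, a ratio of 1.75 (1.51 to 2.04). In cells with at least as much Myh11 (109 and 250) it had 693 CPM and 223 CPM, a ratio of 3.11 (2.78 to 3.48). The difference in Ndufa4l2 thus kept its sign in both sets and was under 2-fold in the first. Adm had 8.32 CPM in IMQ-D5 and 10.9 CPM in Ctrl in the first set and 22.8 CPM and 54.8 CPM in the second. Of the 8 calls in mural cells, that of Slc2a3 alone was kept in the cells with more Rgs5, where several genes have few UMIs. Fibroblast markers summed to 2792 CPM in IMQ-D5 and 2296 CPM in Ctrl mural cells, and their part in these values was not tested.

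**Figure D4:**
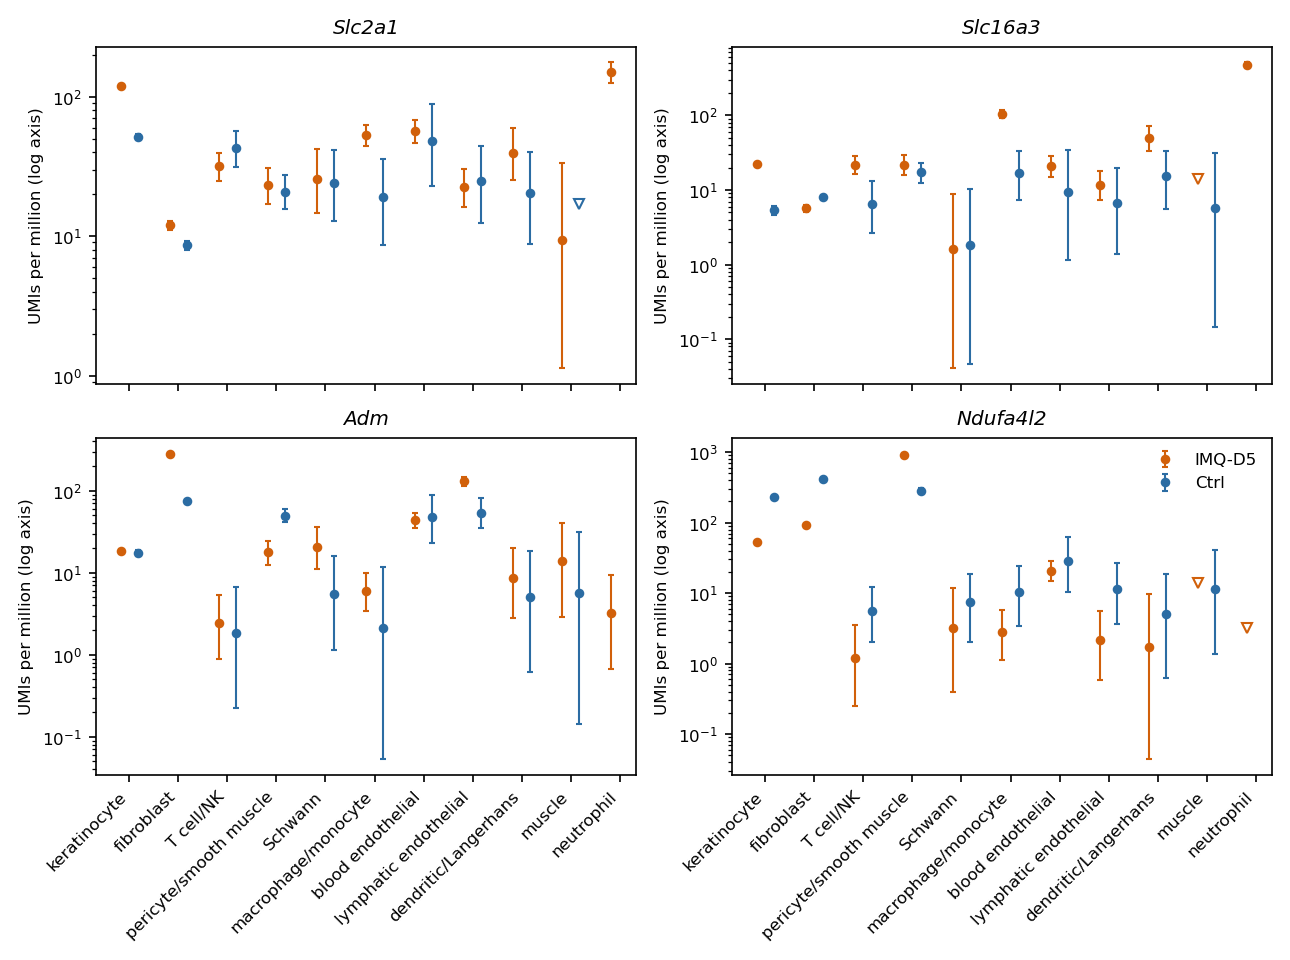
CPM (log axis, a scale of its own per panel) of Slc2a1, Slc16a3, Adm and Ndufa4l2 in 10 lineages of IMQ-D5 (orange) and Ctrl (blue) and in IMQ-D5 neutrophils, with exact 95% counting intervals; open triangles mark the level of 3 counts where none was seen. Neutrophils lie highest for both carriers. Between fibroblasts and the pericyte and smooth muscle lineage the colours change places in the Adm panel and, the other way round, in the Ndufa4l2 panel.

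Blood endothelium (122 cells in IMQ-D5 and 32 in Ctrl) had 1 of 28 members higher and 2 lower, against 9.5% and 7.66% of 8287 genes. Pkm had 770 CPM in IMQ-D5 and 229 CPM in Ctrl (3.36, 2.52 to 4.58). Pfkfb3, the isoform known to drive glycolysis in sprouting endothelium, had 32.6 CPM in IMQ-D5 and 129 CPM in Ctrl (0.253, 0.159 to 0.413). Egln1 had 23.3 CPM in IMQ-D5 and 57.3 CPM in Ctrl, on 45 and 12 UMIs. The summed enzymes were at 5056 CPM in IMQ-D5 and 3098 CPM in Ctrl. Lymphatic endothelium (157 cells in IMQ-D5 and 48 in Ctrl) had 2 of 27 members higher and none lower, against 4.84% and 1.93% of 8248 genes. There Hif1a had 201 CPM in IMQ-D5 and 70.1 CPM in Ctrl (2.87, 1.99 to 4.29) and Adm 130 CPM and 54.2 CPM (2.39, 1.57 to 3.81).

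In Schwann cells (166 in IMQ-D5 and 162 in Ctrl) none of 21 measured members passed the call, against 2.82% higher and 2.42% lower among 6832 genes. Ndrg1, whose human form is mutated in a demyelinating neuropathy, was highest in these cells in both libraries, at 1404 CPM in IMQ-D5 and 1896 CPM in Ctrl (0.741, 0.676 to 0.811). Muscle cells (57 in IMQ-D5 and 31 in Ctrl) had 2 of 16 members higher and 1 lower, against 6.27% and 4.31% of 2758 genes. Aldoa, the aldolase of muscle, had 1391 CPM in IMQ-D5 and 514 CPM in Ctrl (2.71, 2.13 to 3.47), Ddit4 177 CPM and 34.2 CPM, and Pgam1 60.5 CPM and 148 CPM. The mature fibre genes Acta1 and Ckm had 3662 and 1131 CPM in IMQ-D5 and 126 and 28.5 CPM in Ctrl. Dissociation genes summed to 26363 CPM in IMQ-D5 and 16165 CPM in Ctrl (1.63), with 5 of 18 called higher and 1 lower. The part of either shift in the ratios was not tested.

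**Figure D5:**
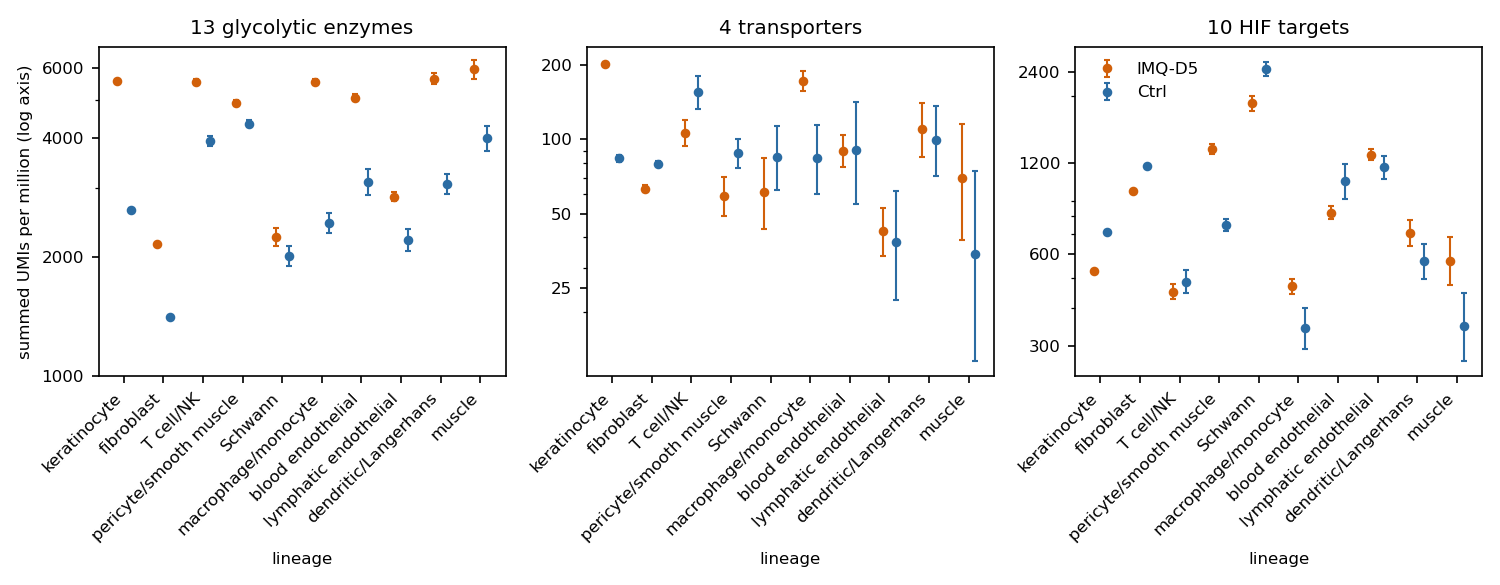
Summed CPM (log axis, a scale of its own per panel) of the 13 enzymes, the 4 transporters and the 10 HIF targets in 10 lineages of IMQ-D5 (orange) and Ctrl (blue), with exact 95% counting intervals. The enzyme sums are higher in IMQ-D5 in all 10 lineages, while the HIF target sums point either way.

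The lineage with the highest level differed from gene to gene. In Ctrl, pericytes and smooth muscle cells had the highest level of 8 members among 10 lineages, including Aldoa (759 CPM), Pkm (517 CPM) and Ldha (378 CPM, T and NK cells 341 CPM with overlapping intervals). In IMQ-D5, keratinocytes had the highest level of 6 members (Tpi1, Pgk1, Pgam1, Eno1, Pdk1 and Slc16a1), with Tpi1, Pgam1 and Slc16a1 clear of the next lineage. Adm was highest in fibroblasts in both libraries, clear of lymphatic endothelium in IMQ-D5 and with overlapping intervals in Ctrl (75.3 CPM and 54.2 CPM). Bnip3l, the receptor that clears mitochondria from maturing erythrocytes, reached 619 CPM in IMQ-D5 red blood cells. Basophils of IMQ-D5, 47 cells, had the highest Ddit4 (694 CPM), Ero1l (813 CPM) and Pfkp (378 CPM). Hk1 and Pfkl were highest in blood endothelium of IMQ-D5, with overlapping intervals.

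Other genes of the same pathways were read from lists made beside the members. Among 34 further HIF-pathway and hypoxia genes measured in keratinocytes, 8 were higher and 2 lower (median log2 0.24), against the 11.9% and 10.8% of all genes there. Carbonic anhydrase 12 (Car12) had 110 CPM in IMQ-D5 and 22.6 CPM in Ctrl (4.87, 4.52 to 5.25), and Fam162a 403 CPM and 177 CPM (2.28, 2.21 to 2.34). Rora, a nuclear receptor, had 78.8 CPM in IMQ-D5 and 461 CPM in Ctrl (0.171, 0.166 to 0.177). In macrophages 4 of 19 such genes were higher and 2 lower, against 5.87% and 8.36% of all genes; Hilpda, which coats lipid droplets in hypoxia, had 171 CPM in IMQ-D5 and 16.8 CPM in Ctrl (10.2, 5.12 to 23.7), and the repressor Bhlhe40 120 CPM and 27.3 CPM.

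Genes of mitochondrial energy metabolism were read beside the enzymes. In keratinocytes all 25 oxidative phosphorylation genes had ratios above 1, with a median log2 ratio of 0.75, and 1 of them was called higher. Of 16 genes of the tricarboxylic acid cycle 2 were higher (median 0.73). By count both lists were near or under the 11.9% of all keratinocyte genes called higher. In fibroblasts the 25 oxidative phosphorylation genes had a median of 0.62 and none was called, against 11.2% of all genes higher, and in macrophages the median was 0.46 with 1 called, against 5.87%. The lactate dehydrogenase B gene Ldhb was higher in keratinocytes, at 102 CPM in IMQ-D5 and 30.9 CPM in Ctrl (3.30, 3.09 to 3.53). So was transketolase (Tkt) of the pentose phosphate pathway, at 277 CPM and 114 CPM (2.42, 2.34 to 2.51). Of 13 further glycolysis genes measured in keratinocytes, 3 were higher and 2 lower. Of 8 pentose phosphate genes there, 1 was higher and 0 lower, against 11.9% higher and 10.8% lower over all genes. Ldhb was lower in pericytes and smooth muscle cells, at 52.6 CPM in IMQ-D5 and 157 CPM in Ctrl (0.334, 0.267 to 0.415). Genes induced by tissue dissociation had median log2 ratios of -0.40 in keratinocytes, -0.50 in macrophages and 0.25 in fibroblasts, and from -0.62 in blood endothelium to 0.43 in muscle over the 10 lineages.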

How the data were processed

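Raw UMI counts per gene and cell were analysed as deposited. The matrices were written by Cell Ranger 5.0.0, per the file headers, whereas the submitters' processing notes name Cell Ranger 3.0.2, Seurat 2.0 and mm10; alignment settings and annotation are not given in the sources used here. Cells with at least 200 genes and at most 10% mitochondrial UMIs were kept. A cell was placed in a lineage when its marker score was at least 0.15 with at least 3 markers detected and the next lineage scored at most 0.6 of it; subtypes needed 0.2 and 0.8. Of 173 listed markers 168 were in the files. These thresholds were set after marker scores had been seen.

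UMIs were summed per lineage and library, with exact Poisson intervals for levels and exact conditional binomial intervals for ratios (95%). Shares of cells carry Clopper-Pearson intervals after thinning to 2000 UMIs. Depth per lineage stands beside the results. A call needed 20 UMIs, a 2-fold difference and an interval that excluded equality, and a count of 0 was set to a floor of 3. The 33 members are all reported; from other lists up to 4 genes per list and lineage were eligible, those with the largest absolute log2 ratio among genes with at least 100 UMIs and 20 CPM. Members and lists were chosen with earlier results of these data known. The calculation was checked on simulated counts. Doublets were left in, with Scrublet as an alternative. Other alternatives changed scaling, minimum counts, weighting of cells, gate and cell filters. Python 3.11.15, NumPy 2.4.6, SciPy 1.17.1, Scanpy 1.11.5 and matplotlib 3.10.9 were used; promoters are from RefSeq (GRCm38.p6).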

Additional observations from a re-analysis of the deposited data

Results flagged for a closer look

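In 4 genes the difference between libraries had opposite signs in different lineages, each past the call, and the difference between lineages was not tested. Slc16a1 had log2 ratios (IMQ-D5 over Ctrl) of 1.21 in keratinocytes, -1.01 in T and NK cells and -1.90 in pericytes and smooth muscle cells. Bnip3 had 2.22 in macrophages and 4.13 in dendritic cells, against -1.16 in pericytes and smooth muscle cells. Adm had 1.91 in fibroblasts and 1.26 in lymphatic endothelium, against -1.50 in pericytes and smooth muscle cells. Ndufa4l2 had 1.70 in pericytes and smooth muscle cells, against -2.11 in keratinocytes and -2.16 in fibroblasts. Several of these calls were lost under other settings. With equal weight per cell these were Slc16a1 in keratinocytes and in T and NK cells, and Adm and Bnip3 in pericytes and smooth muscle cells. Bnip3 in dendritic cells lost its call without the cell richest in it. In mural cells with more Rgs5 than Myh11 none of the 4 genes kept its call.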

How the results depend on the processing

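No paired analysis was possible because each group has 1 library. Subtracting free RNA or leaving out Scrublet doublets (1.29% of IMQ-D5 and 4.10% of Ctrl cells, against expected 6.799% and 8.24%, so many may remain) moved none of the 30 counts and medians; Scrublet removal ended 1 of 59 single-gene calls. The causes of the changes below were not tested. Counts are of members. For these settings, subtypes and splits no share over all genes was computed, so the counts have no background beside them.

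In keratinocytes, cells with no cell cycle UMI, not matched for depth, gave 6 higher and 0 lower (3 of 12 calls kept). The members' median log2 ratio there was 0.47 and Slc16a1 was at -0.076. Basal and suprabasal cells gave 1 lower each. The median was 0.38 with equal weight per cell, 0.95 in suprabasal and 0.88 in upper hair follicle cells, where Slc16a3 (-0.47), Ddit4 (-0.11) and Ndufa4l2 (0.79) reversed.

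In fibroblasts, size factors gave 1 higher and a median of -0.078, equal weight a median of 0.11 and a stricter gate 0.26. Papilla cells gave 1 higher, 1 lower and a median of -0.20, with Ldha at -0.57, Pfkfb4 at 0.35 and Adm at -1.07. Sheath cells gave 0 higher and a median of -0.090, with Egln3 at 0.78 and Adm at -1.17. Papillary cells gave 1 higher, 5 lower and a median of 0.018, with Egln3 at 0.13 and Ddit4 at -1.44. Coch cells gave a median of 0.40, with Pfkfb4 at 0.018, Egln3 at 1.53 and Adm at -0.88. Perivascular cells gave 0 lower, a median of 0.12 and Ndufa4l2 at 0.0073; progenitors gave 1 lower.

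In T and NK cells, the higher count was 1 with a minimum of 100 UMIs, 0 with the stricter gate (Slc2a3 at 0.52) and 1 with at least 500 genes and at most 5% mitochondrial UMIs; the lower count was 2 with size factors and 2 with that cell filter. In pericytes and smooth muscle cells, the minimum of 100 UMIs gave 2 lower. Cells with more Rgs5 than Myh11 gave 2 higher and 3 lower, with 1 of 8 calls kept. In Schwann cells, no minimum gave 1 higher and 1 lower, and equal weight 1 lower. In macrophages, no minimum and equal weight each gave 1 lower. In dendritic cells, the minimum of 100 UMIs gave 5 higher and 0 lower, and the stricter gate 4 higher. In blood endothelium, the higher count was 2 with size factors, 2 without each gene's top cell and 3 with equal weight; the lower count was 1, 0 and 1 with size factors, the minimum of 100 UMIs and no top cell. In lymphatic endothelium, equal weight gave 5 higher and no minimum 1 lower. In muscle, the higher count was 1 with the minimum of 100 UMIs, 4 without the top cell and 4 with equal weight; the lower count was 0 in these and with the stricter gate, which gave a median of 1.27 and Pgam1 at 0.50.

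Splits by Rgs5, C1q and cell cycle UMIs and the panel without Cxcl12 and Apod were chosen after seeing the data. With 1 library a group, variation between animals cannot be told apart from the treatment, and lineages with 30 to 99 cells in a library rest on few UMIs.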
